A study of Oryctolagus cuniculus with 34 samples.

Results

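SLIT ligands and their ROBO receptors were followed in the supraspinatus, a shoulder muscle of the rotator cuff, of rabbits. The members were chosen by name: the ligands SLIT2 and SLIT3 and the receptors ROBO1, ROBO2 and ROBO4, all 5 of which are among the 18176 genes of the deposited count files. SLIT3 was chosen for its higher level in long-term repaired than in uninjured muscle, so that contrast is given for the members as a description, with no test. Among the long-term muscles, 5 were repaired and given a matrix gel prepared from the extracellular matrix of tissue, 5 were repaired only and 10 were uninjured. Among the short-term muscles, 5 were repaired and given the gel, 5 were repaired only and 4 had the injury only. The sources used here do not give the length of each term, the kind of injury or the animals' strain, age and sex. Nothing in the labels says whether replicates are different animals, although file names carry codes that differ within every group, so p-values measure only the spread between these libraries.

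SLIT proteins are large secreted ligands that bind the immunoglobulin domains of ROBO receptors at the cell surface, with heparan sulphate as a cofactor. They were first known as repellents that keep axons from crossing the midline of the nervous system, and the same pair steers migrating cells by changing the actin cytoskeleton. ROBO1 and ROBO2 are found on neurons and on many mesenchymal cells, while ROBO4, a shorter receptor, is mainly found on endothelium and is linked to vessel stability. In skeletal muscle, SLIT and ROBO proteins have been linked to the guidance of motor axons and, in Drosophila, to the attachment of muscles to tendon cells.

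The authors deposited raw counts of reads for each gene, with totals from 26904529 to 32313295 in each of the 14 short-term libraries and from 12582302 to 15019158 in each of the 20 long-term ones. Levels are given as CPM, the counts of a library scaled to a common total with TMM factors (trimmed mean of M-values) over all 34 libraries, and a level depends on gene length, so it is compared between libraries and not between genes. All 4 muscle fibre markers found in the files, ACTA1, CKM, MYH1 and TTN, had counts in every group, with summed means from 94480 to 173158 CPM. Of the libraries, 3 stood apart from their groups by the median correlation of log2 CPM with the other libraries: short-term injury replicate 3 (0.887), short-term repair replicate 4 (0.878) and long-term gel replicate 1 (0.896), against 0.913 to 0.977 for the others. Some of the differences in those groups are also given without them, a choice made after seeing the data. In bulk tissue, fewer cells of a type and less RNA per cell cannot be told apart.

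In the long term SLIT3, the ligand that picked the family out, was at 10.6, 10.3, 8.97, 9.47 and 6.39 CPM in the 5 gel muscles. In the 5 muscles with repair alone it was at 21.7, 10.6, 11.6, 18.9 and 8.39 CPM, and in the 10 uninjured muscles it had a lowest, median and highest level of 4.59, 5.73 and 10.2 CPM. All 3 groups overlap: repair replicates 1, 3 and 4 lie above every gel and uninjured library, and the lowest repair library lies inside the uninjured range. SLIT3 averaged 9.14 ± 1.67 CPM with the gel, 14.3 ± 5.75 CPM with repair alone and 6.27 ± 1.70 CPM in uninjured muscle (SD, n = 5, 5 and 10).

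SLIT2, the other ligand chosen, rests on 4 to 39 counts per long-term library. It was at 0.628, 0.653, 0.823, 0.548 and 0.970 CPM in gel muscles and at 2.59, 0.679, 0.639, 1.80 and 0.357 CPM in muscles with repair alone, with 0.433, 0.604 and 0.990 CPM as the lowest, median and highest of the uninjured. Repair replicates 1 and 4, which also held the highest SLIT3 levels, carried the high SLIT2 values, and the other 3 lay within or below the uninjured range.

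Of the receptors in the long term, ROBO1 was at 0.628, 2.39, 1.73, 2.11 and 1.29 CPM in gel muscles and at 3.46, 2.80, 3.05, 1.95 and 1.43 CPM in muscles with repair alone. The uninjured muscles ran from 0.883 to 2.45 CPM around a median of 2.03 CPM, and 3 of the 5 repair libraries lay above that range. ROBO2 was sparse, with 0 to 28 counts per long-term library: 0, 0.363, 2.30, 0.313 and 0.727 CPM in gel muscles, 0.931, 1.53, 0.497, 0.781 and 0.624 CPM with repair alone, and 0 to 2.10 CPM (median 0.276 CPM) in uninjured muscle. A count of 0 was found in gel replicate 1, where 3 counts would be 0.314 CPM, and in uninjured replicate 7, where they would be 0.241 CPM, so these allow levels up to those values by counting error alone. ROBO4, the endothelial receptor, was at 52.9, 30.8, 38.7, 32.0 and 38.9 CPM in gel muscles and at 35.1, 36.5, 36.3, 40.0 and 39.9 CPM with repair alone, against 33.3 to 48.3 CPM (median 37.9 CPM) in uninjured muscle. ROBO4 means differed by less than the SD of any group in the long term: 38.7 ± 8.78 CPM in gel, 37.5 ± 2.24 CPM in repair and 38.8 ± 4.50 CPM in uninjured muscle (SD, n = 5, 5 and 10).

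In the short term the SLIT3 levels spread far more widely. SLIT3 was at 26.9, 12.5, 20.2, 9.84 and 16 CPM in gel muscles, at 101, 47.7, 46.0, 8.26 and 76.9 CPM in muscles with repair alone, and at 9.11, 14, 44.5 and 10.3 CPM with injury only. Of the repair libraries 4 lay above every gel library and above every injury library, while repair replicate 4, one of the libraries that stood apart, was the lowest of all 14. Injury replicate 3, which also stood apart, lay above the other injury libraries and above all gel libraries. Means were 17.1 ± 6.71 CPM with the gel, 55.9 ± 34.9 CPM with repair alone and 19.5 ± 16.8 CPM with injury only (SD, n = 5, 5 and 4).

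Short-term SLIT2 was at 1.52, 0.722, 0.951, 1.18 and 0.779 CPM with the gel, at 3.33, 1.09, 0.462, 0.411 and 1.01 CPM with repair alone, and at 0.766, 0.418, 1.38 and 0.347 CPM with injury only. The 3 groups overlap throughout, and 1 library, repair replicate 1, lies above the rest.

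The receptor ROBO1 was at 3.91, 4.46, 10.0, 2.62 and 1.56 CPM with the gel, at 12.8, 4.92, 5.06, 1.64 and 9.67 CPM with repair alone, and at 0.979, 0.710, 4.36 and 0.973 CPM with injury only. Apart from injury replicate 3, every injury library lay below every gel and repair library. ROBO2 was at 0.923, 0.0656, 0.0559, 0.722 and 0.708 CPM with the gel, at 2.04, 2.00, 1.39, 0.0822 and 1.23 CPM with repair alone, and at 0.426, 0.167, 0.301 and 0.278 CPM with injury only, from 2 to 99 counts. Again 4 repair libraries lay above all gel and injury libraries, and repair replicate 4 lay below all injury libraries. ROBO4 was at 35.0, 29.0, 29.1, 28.5 and 32.4 CPM with the gel, at 19.5, 29.6, 22.2, 23.6 and 32.0 CPM with repair alone, and at 26.7, 21.7, 50.1 and 26.7 CPM with injury only, with overlap between all groups.

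**Figure D1:**
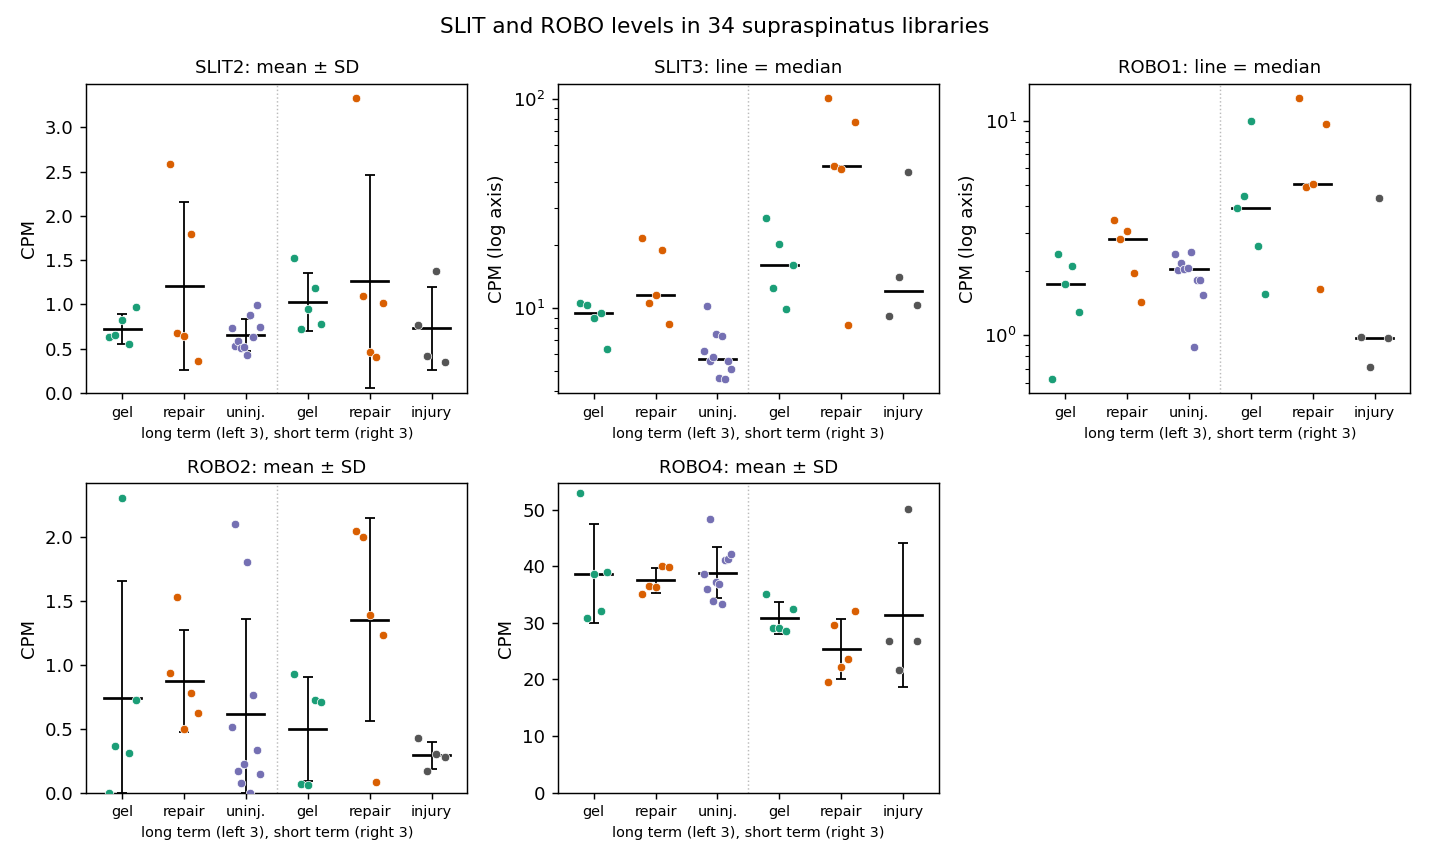
CPM of each gene (y axis, TMM-scaled; log axis for SLIT3 and ROBO1) in the 34 libraries by group (x axis; long term left of the dotted line, short term right of it). Points are libraries, lines are means with SD bars (cut at 0) or, on the log axes, medians; the 4 high short-term repair libraries of SLIT3 lie between 46.0 and 101 CPM, above the gel libraries at 9.84 to 26.9 CPM.

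Ordered by their means, the groups ran for SLIT3 from short-term repair (55.9 CPM) through short-term injury, short-term gel, long-term repair and long-term gel to uninjured muscle (6.27 CPM). For ROBO1 the order began with short-term repair (6.82 CPM) and short-term gel (4.52 CPM) and ended with long-term gel (1.63 CPM). ROBO4 ran the other way, from uninjured muscle (38.8 CPM) down to short-term repair (25.4 CPM). For each of the 5 genes every pair of neighbours in its order had overlapping libraries. Such an overlap can rest on a single library: for SLIT3 only short-term repair replicate 4 (8.26 CPM) lay below the highest short-term injury library (44.5 CPM).

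Repair alone was set against uninjured muscle in the long term, the contrast on which SLIT3 was chosen. Fitted log2 differences, repair minus uninjured, were 1.21 (SE 0.21) for SLIT3, 0.93 (SE 0.34) for SLIT2, 0.42 (SE 0.26) for ROBO1, 0.52 (SE 0.72) for ROBO2 and -0.035 (SE 0.11) for ROBO4. The sign of SLIT3 was fixed by its choice on this contrast. Of the others, SLIT2, ROBO1 and ROBO2 were above 0, beside 50% of all 11605 genes, and the ROBO4 value was close to 0. In this contrast 1.01% of the genes passed edgeR's adjusted threshold, and no test is given for the members. Libraries weighed on the ligands: leaving out repair replicate 1 gave 0.99 for SLIT3 and 0.42 for SLIT2, and leaving out repair replicate 5 gave 1.35 for SLIT3 and 1.16 for SLIT2. The receptors rested on single libraries too: ROBO2 was at 0.243 without repair replicate 2 and at 0.933 without uninjured replicate 2, and ROBO1 was at 0.272 without repair replicate 1.

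The animal codes pair each operated muscle with an uninjured muscle. SLIT3 was higher in the repaired than in the own uninjured muscle in 5 of 5 animals: 21.7 against 6.26 CPM, 10.6 against 10.2 CPM, 11.6 against 7.53 CPM, 18.9 against 7.39 CPM and 8.39 against 5.61 CPM. The mean log2 difference of these pairs was 0.88 ± 0.68 (SD, n = 5), with a range of 0.06 to 1.78, so the animal whose uninjured muscle was already at 10.2 CPM showed almost none. With the animal as a block the fitted SLIT3 value was 0.91 (SE 0.25). ROBO1, ROBO2 and SLIT2 were each higher in 4 of the 5 repaired muscles, and ROBO4 in 2 of 5.

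Gel-treated muscle against uninjured muscle shares its uninjured libraries with the contrast that picked SLIT3. The fitted SLIT3 difference, gel minus uninjured, was 0.54 (SE 0.22) with an edgeR adjusted p of 0.329, and the other members lay between -0.22 for ROBO1 and 0.29 for ROBO2. With edgeR's quasi-likelihood test and Benjamini-Hochberg adjustment 0 of 5 members passed the threshold, where 0.00862% of 11605 genes did. SLIT3, 1 of the 5, was higher at an unadjusted p under 0.05 (0.0213), as were 8.94% of all genes. DESeq2 and limma voom called 0 members, beside 15 and 1 of all genes. Without gel replicate 1, which stood apart, the values were 0.485 for SLIT3 (adjusted p 0.712), 0.575 for ROBO2 (adjusted p 0.881) and -0.036 for ROBO1 (adjusted p 0.983).

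Within animals the gel pairs had a smaller spread in SLIT3 than the repair pairs. SLIT3 was at 10.6 against 5.58 CPM, 10.3 against 5.85 CPM, 8.97 against 4.62 CPM, 9.47 against 4.59 CPM and 6.39 against 5.11 CPM in the gel-treated and own uninjured muscles. That is higher in 5 of 5 animals, with a mean log2 difference of 0.80 ± 0.28 (SD, n = 5). The exact two-sided sign-flip permutation test gave p = 0.0625, the smallest that 5 pairs allow, and 0.312 after Benjamini-Hochberg adjustment over the 5 members. With the animal as a block the edgeR value for SLIT3 was 0.81 (SE 0.18, adjusted p 0.773). The pairing rests on the codes alone. By correlation of deviations from group means, the coded uninjured muscle was the best match for 0 of 5 gel muscles, against 4 of 5 repair muscles. ROBO1 was lower in 3 of 5 gel-treated muscles (mean -0.39 ± 0.76), SLIT2 was higher in 4 of 5 (0.28 ± 0.36), and ROBO2 and ROBO4 had mixed signs.

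**Figure D2:**
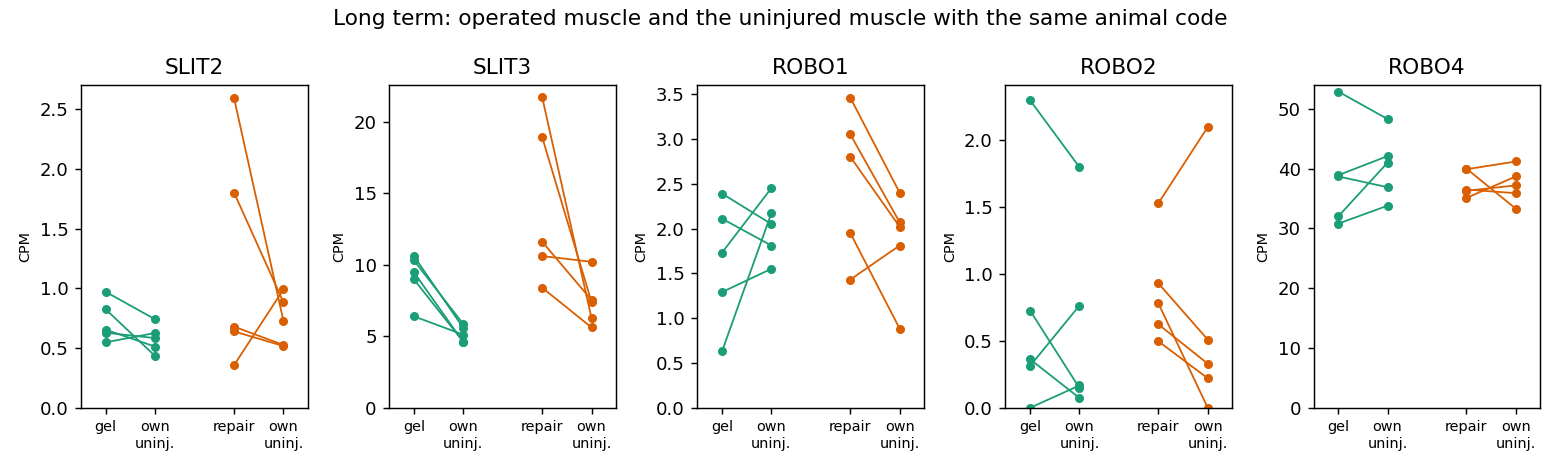
CPM (y axis) of each gene in a long-term operated muscle and in the uninjured muscle with the same animal code, each line 1 animal (5 with the gel, 5 with repair alone). The SLIT3 lines all run higher on the operated side, by log2 differences of 0.32 to 1.03 with the gel and 0.06 to 1.78 with repair alone.

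Gel-treated muscle was then set against muscle with repair alone in the long term, to see what the gel adds. Both ligands and ROBO1 had lower fitted levels with the gel: gel minus repair was -0.67 for SLIT3 (SE 0.25, edgeR adjusted p 0.302), -0.79 for SLIT2 (SE 0.41, adjusted p 0.376) and -0.64 for ROBO1 (SE 0.31, adjusted p 0.351). ROBO2 was at -0.23 (SE 0.83) and ROBO4 at 0.015 (SE 0.13). With edgeR 0 of 5 members passed, as did 0% of the 11605 genes. DESeq2 and limma voom also called 0 members, beside 7 and 0 of all genes. An unadjusted p under 0.05 was found for 2 members, SLIT3 (0.0132) and ROBO1 (0.0498), both lower, against 6.32% of all genes lower at that level. The repair libraries here are those on which SLIT3 was chosen, and without repair replicate 1 the values were -0.46 for SLIT3 and -0.28 for SLIT2. Without gel replicate 1, which stood apart, they were -0.718 for SLIT3 (adjusted p 0.493), -0.735 for SLIT2 (adjusted p 0.579) and -0.451 for ROBO1 (adjusted p 0.59), while ROBO2 and ROBO4 changed sign to 0.062 and -0.11.

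In the short term, gel against repair gave the largest fitted SLIT3 difference of the 6 comparisons within a term. Gel minus repair was -1.68 (SE 0.58, edgeR adjusted p 0.413). The groups overlap only through repair replicate 4, which lay below all gel libraries, while the other 4 repair libraries lay above them. ROBO2 was at -1.41 (SE 0.78, adjusted p 0.545), ROBO1 at -0.57 (SE 0.63, adjusted p 0.766), SLIT2 at -0.26 (SE 0.57, adjusted p 0.890) and ROBO4 at 0.32 (SE 0.22, adjusted p 0.623). Of the members 0 of 5 passed edgeR's adjusted threshold, where 0% of 13526 genes did. DESeq2 and limma voom called 0 members, beside 127 and 3 of all genes. SLIT3 alone of the 5 had an unadjusted p under 0.05 (0.0118), beside 4.73% of all genes lower at that level.
Without repair replicate 4 and injury replicate 3, which stood apart, SLIT3 was at -1.95 (SE 0.31, adjusted p 0.0493), and in a fit of all 34 libraries it was at -1.71 (SE 0.42, adjusted p 0.0476), so the call rests on these choices. Beside it, 13 of all genes passed without those 2 libraries and 93 in the fit of all 34.

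Repair alone against injury only, in the short term, had the largest fitted values for ROBO1 and ROBO2 of the 6 comparisons within a term. Repair minus injury was 2.20 for ROBO2 (SE 0.88, edgeR adjusted p 0.322), 1.92 for ROBO1 (SE 0.71, adjusted p 0.322) and 1.51 for SLIT3 (SE 0.62, adjusted p 0.330). SLIT2 was at 0.78 (SE 0.62, adjusted p 0.507) and ROBO4 at -0.31 (SE 0.23, adjusted p 0.474). With edgeR 0 of 5 members passed, as did 0% of the 13526 genes, and 3 of 5 had an unadjusted p under 0.05 and were higher, against 9.50% of all genes. DESeq2 called 0 members, beside 242 of all genes. With quality weights for the libraries limma voom called 3, beside 4538 of all genes: SLIT3 (2.07, adjusted p 0.00718), ROBO1 (2.62, adjusted p 0.00845) and ROBO2 (2.43, adjusted p 0.0292). Without injury replicate 3 and repair replicate 4, edgeR called the same 3 genes: SLIT3 at 2.54 (SE 0.38, adjusted p 0.00338), ROBO1 at 3.12 (SE 0.61, adjusted p 0.00531) and ROBO2 at 2.45 (SE 0.86, adjusted p 0.0445). Without these 2 libraries 4556 of all genes passed, against 0 with them. In the fit of all 34 libraries edgeR called SLIT3 (1.52, adjusted p 0.0467) and ROBO1 (1.93, adjusted p 0.0311), beside 626 of all genes.

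Gel-treated against injured muscle, in the short term, differed most in ROBO1. Gel minus injury was 1.36 for ROBO1 (SE 0.70, edgeR adjusted p 0.313), 0.78 for ROBO2 (SE 0.86, adjusted p 0.663), 0.51 for SLIT2 (SE 0.62, adjusted p 0.695), -0.17 for SLIT3 (SE 0.60, adjusted p 0.905) and 0.002 for ROBO4 (SE 0.23, adjusted p 0.998). With edgeR 0 of 5 members passed, where 0% of 13526 genes did, and 0 had an unadjusted p under 0.05, against 18.4% of all genes. DESeq2 called 0 members, beside 788 of all genes, and limma voom called ROBO1 (1.92, adjusted p 0.036), beside 3667 of all genes. Without gel replicate 3 the edgeR value of ROBO1 was 0.807. Without injury replicate 3 and repair replicate 4, ROBO1 was at 2.31 (SE 0.58, adjusted p 0.0211) and the SLIT3 value changed sign to 0.58 (adjusted p 0.230), with 2577 of all genes past the threshold. The 3 short-term comparisons share libraries in pairs, so their values are not independent of each other.

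**Figure D3:**
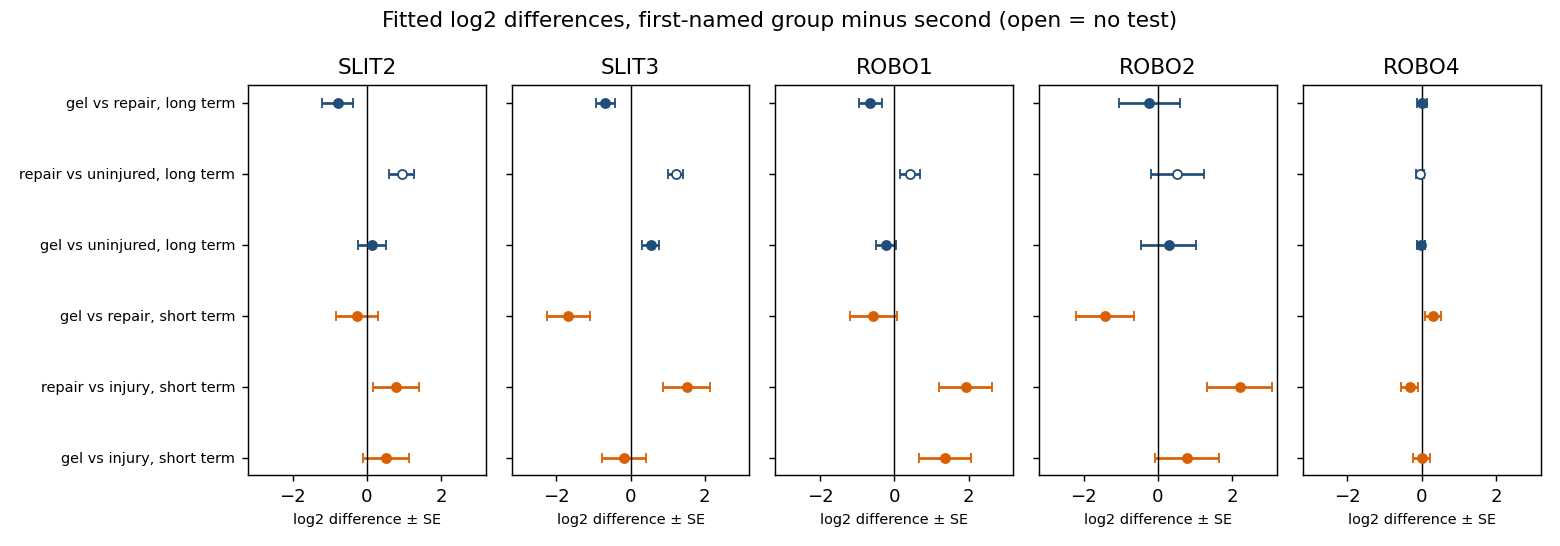
Fitted log2 differences (x axis, first-named group minus second, with SE bars) of the 5 genes in the 6 comparisons within a term (rows; long term above, short term below). Open circles mark the contrast on which SLIT3 was chosen, given without a test; the SLIT3 values for gel against repair are -0.67 in the long and -1.68 in the short term.

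Levels were then compared between terms within a treatment. These comparisons cannot be told apart from sequencing depth or run, since every long-term library held fewer counts than every short-term one, and they include the long-term repair libraries on which SLIT3 was chosen. With repair alone, SLIT3 fell by 1.97 on the log2 scale in the long term relative to the short term (SE 0.43, edgeR adjusted p 5e-04): 14.3 ± 5.75 CPM in the long term against 55.9 ± 34.9 CPM in the short term. ROBO1 fell by 1.42 (SE 0.48, adjusted p 0.017), at 2.54 ± 0.83 CPM in the long term against 6.82 ± 4.4 CPM in the short term. ROBO4 rose by 0.56 (SE 0.17, adjusted p 0.008), at 37.5 ± 2.24 CPM in the long term against 25.4 ± 5.26 CPM in the short term. Its long-term libraries (35.1 to 40.0 CPM) lay above all short-term ones (19.5 to 32.0 CPM), as 22.8% of all genes tested had groups that do not overlap. The 3 members called of 5 stand beside 46.2% of the 12935 genes called by edgeR in this comparison, 27.9% lower and 18.2% higher, so a share of this size is close to that of all genes. Of all calls 39.5% were higher with TMM scaling and 19.5% with library totals, under which the median of all genes moved to -0.45 and ROBO4 was at 0.21 (adjusted p 0.536). ROBO1 was at -1.05 (adjusted p 0.0824) without short-term repair replicate 1. SLIT2 and ROBO2 had values of -0.055 (adjusted p 0.933) and -0.64 (adjusted p 0.545).

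With the gel, ROBO1 was the 1 member of 5 called, beside 48.3% of the 12935 genes, 26.5% of them lower. It fell by 1.46 on the log2 scale in the long term relative to the short term (SE 0.50, edgeR adjusted p 0.0161), with means of 1.63 ± 0.697 CPM in the long term against 4.52 ± 3.29 CPM in the short term. Without short-term gel replicate 3, whose ROBO1 level of 10.0 CPM is the highest of its group, the value was -0.93 (adjusted p 0.12). SLIT3 was at -0.90 (SE 0.42, adjusted p 0.0768) with 9.14 ± 1.67 CPM in the long term and 17.1 ± 6.71 CPM in the short term. It passed without short-term gel replicate 4 (-1.05, adjusted p 0.0497), without the 3 libraries that stood apart (-0.96, adjusted p 0.00732), with limma voom (-0.85, adjusted p 0.016) and with library totals (-1.30, adjusted p 0.0445). Many genes passed in these settings: 7617 without the 3 libraries, 7875 with limma voom and 5995 with library totals. With each replicate left out in turn 5316 to 6874 genes did. ROBO4 was at 0.33 (SE 0.17, adjusted p 0.112), SLIT2 at -0.51 (adjusted p 0.408) and ROBO2 at 0.59 (adjusted p 0.587). Calls in this comparison were 45.2% higher with TMM scaling and 24.3% with library totals, which moved the median of all genes to -0.43 and the ROBO4 value to -0.039.

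Whether the gel effect itself differed between the terms was tested as an interaction, the long-term gel minus repair difference less the short-term one. SLIT3 had a value of 1.06 (SE 0.59, unadjusted p 0.0823, edgeR adjusted p 0.458), and the other members lay between -0.45 for SLIT2 and 1.23 for ROBO2. With edgeR 0 of 5 members passed and 0 had an unadjusted p under 0.05, beside 0.0155% and 12.7% of the 12935 genes. DESeq2 and limma voom called 0 members, beside 28 and 5 of all genes.

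The remaining family members were found at low counts. SLIT1, another SLIT ligand, was at 0.733, 1.02, 1.01, 2.95 and 3.01 CPM in short-term gel muscles, at 0.514, 0.891, 0.744, 0.576 and 0.289 CPM with repair alone, and at 0, 0.251, 0.727 and 0.452 CPM with injury only. Every gel library lay above every injury library, beside 7.36% of all genes without overlap in either direction, and gel replicates 4 and 5 lay far above the rest. Gel minus injury was 2.27 (SE 0.77, edgeR adjusted p 0.178) and gel minus repair 1.57 (SE 0.68, adjusted p 0.469). Without injury replicate 3 and repair replicate 4 the SLIT1 values were 2.83 (adjusted p 0.0411) for gel minus injury and 1.55 (adjusted p 0.23) for gel minus repair. In the long term SLIT1 averaged 0.841 ± 0.0851 CPM with the gel, 0.622 ± 0.215 CPM with repair alone and 0.868 ± 0.487 CPM in uninjured muscle. ROBO3, the receptor of commissural axons, had 0 to 9 counts in any library and was too sparse to be tested.

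A list of 50 genes around the pathway held heparan sulphate carriers, other guidance receptors, intracellular effectors and proteases, and 47 of them were in the files. Within the short term 0 of the 43 tested passed edgeR's adjusted threshold in any of the 3 comparisons. At an unadjusted p under 0.05 there were 2 higher and 4 lower for gel against repair, beside 10.4% of all genes in both directions together. There were 7 higher and 1 lower for repair against injury, beside 14.6%, and 4 higher and 4 lower for gel against injury, beside 18.4%. Without injury replicate 3 and repair replicate 4 edgeR called 0, 13 and 9 of the 43 in these comparisons, beside 13, 4556 and 2577 of all genes. Paxillin (PXN), a focal adhesion adaptor that can bind the tail of ROBO4, had the smallest p for gel against repair and for gel against injury. It averaged 404 ± 23.3 CPM with the gel, 288 ± 31.6 CPM with repair alone and 254 ± 22.1 CPM with injury only (SD, n = 5, 5 and 4). Libraries ran from 370 to 429 CPM with the gel, 245 to 328 CPM with repair alone and 233 to 284 CPM with injury only. Gel and injury libraries did not overlap, beside 7.36% of all genes without overlap in either direction. The fitted PXN differences were 0.52 (SE 0.15, edgeR adjusted p 0.406) for gel minus repair and 0.70 (SE 0.16, adjusted p 0.134) for gel minus injury, so they too missed the threshold over all genes. Without those 2 libraries they were 0.50 (adjusted p 0.106) and 0.61 (adjusted p 0.027). The gene PLXNA1, for a plexin that takes part in semaphorin signalling, was at -0.76 (SE 0.22, adjusted p 0.406) for gel minus repair, averaging 22.8 ± 5.45 CPM in gel muscles and 39.6 ± 9.82 CPM in muscles with repair alone.

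For repair against injury the smallest p-values of the list were those of ROCK2, a kinase of the actomyosin cytoskeleton, and SRGAP1, a GTPase-activating protein that binds the tail of ROBO1. ROCK2 was at -0.83 (SE 0.26, edgeR adjusted p 0.322) with 138 ± 34.8 CPM after repair and 244 ± 54.1 CPM with injury only. SRGAP1 was at 1.69 (SE 0.58, adjusted p 0.322) with 16.6 ± 13.3 CPM after repair and 5.07 ± 2.79 CPM with injury only. Without the 2 libraries that stood apart ROCK2 was at -1.10 (adjusted p 0.0137) and SRGAP1 at 2.36 (adjusted p 0.00586). Of the 43 listed genes tested, 33 lay above 0 in this comparison, beside 51.7% of all genes (median 0.19, against 0.02 for all genes). For gel against repair 12 of 43 did, beside 45.7% (median -0.20, against -0.04). These counts depend on the scaling: with library totals the medians of all genes moved to 0.39 and -0.24, and 41 and 7 of the 43 lay above 0, beside 80.5% and 28.2% of all genes.

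In the long term 0 of 42 pathway genes passed for gel against repair or for gel against uninjured muscle. At an unadjusted p under 0.05 there were 2 higher and 6 lower for gel against repair, beside 14.2% of all genes, and 6 higher and 0 lower for gel against uninjured, beside 13.8%. For gel minus repair the smallest p-values were those of ARHGAP39, a ROBO-binding GTPase-activating protein known from Drosophila as Vilse (0.80, SE 0.25, edgeR adjusted p 0.302), and BMP1, a tolloid-family protease (-0.42, SE 0.14, adjusted p 0.302). ARHGAP39 averaged 6.39 ± 3.69 CPM with the gel (median 4.38, highest 12.6 CPM), 3.58 ± 0.204 CPM with repair alone and 4.26 ± 0.633 CPM in uninjured muscle, and without gel replicate 1 its gel minus repair value was 0.43 (adjusted p 0.493). PAK1, a kinase that acts downstream of RAC1 and CDC42, averaged 113 ± 45.9 CPM with the gel, 108 ± 23.1 CPM with repair alone and 56.9 ± 20.1 CPM in uninjured muscle. The fitted PAK1 difference was 0.97 for gel minus uninjured (SE 0.23, adjusted p 0.325) and, as a description, 0.94 (SE 0.23) for repair minus uninjured. Without gel replicate 1 the gel minus uninjured values were 0.73 for PAK1 and 0.43 for PLXNA1 (adjusted p 0.712 for both), against 0.60 (SE 0.19, adjusted p 0.325) for PLXNA1 with all libraries. The syndecan SDC1, a heparan sulphate carrier, was at 1.39 (SE 0.39) for repair minus uninjured, with 2.21 ± 1.91 CPM after repair and 0.857 ± 0.265 CPM in uninjured muscle.

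Between the terms 21 of 42 listed genes were called with repair alone, 10 higher and 11 lower in the long term, and 21 with the gel, 12 higher and 9 lower, beside 46.2% and 48.3% of all genes. The GTPase CDC42 had the smallest p in both: with repair alone it fell to 35.9 ± 2.82 CPM in the long term, against 145 ± 23.5 CPM in the short term (log2 difference -2.02, SE 0.15, edgeR adjusted p 2.8e-12), and with the gel to 31.4 ± 1.96 CPM against 117 ± 34.2 CPM (-1.90, SE 0.15, adjusted p 1.22e-11). CAP1, which binds actin, fell by 1.65 with repair alone and by 1.64 with the gel (adjusted p 3.76e-06 and 3.61e-06). DAG1, the dystroglycan that binds SLIT through its sugar chains in mice, rose by 0.99 with repair alone and by 0.70 with the gel, and the exchange factor SOS2 rose by 1.63 with repair alone and by 1.46 with the gel. BMP1 fell by 2.15 and the heparan sulphate polymerase EXT1 by 1.24 with repair alone, while with the gel PXN fell by 0.85 and the sulphotransferase NDST1 rose by 0.94. For the interaction 0 of 42 passed, with PXN at -0.68 (SE 0.18, adjusted p 0.214) and PLXNA1 at 1.17 (SE 0.33, adjusted p 0.214) at the smallest p-values.

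Markers of other cells moved with some of these levels. All 9 listed markers of fibroblasts and fibro-adipogenic progenitors, among them PDGFRA, DCN and LUM, were in the files and none was at 0 throughout a group. Their summed level ranged from 994 to 1349 CPM in long-term gel muscle, from 1224 to 2456 CPM with repair alone and from 613 to 1618 CPM in uninjured muscle. In the short term it ranged from 1459 to 2327 CPM with the gel, from 1603 to 4468 CPM with repair alone and from 1413 to 5473 CPM with injury only. The short-term repair library with low SLIT3, replicate 4, had the lowest marker sum of its group (1603 CPM) and the injury library with high SLIT3, replicate 3, the highest (5473 CPM). Long-term repair replicate 1, highest in SLIT3 and SLIT2, also had the highest marker sum of its group (2456 CPM). Muscle fibre markers ran the other way in the libraries that stood apart: short-term repair replicate 4 had 204421 CPM of them, against 39126 to 106116 CPM in the other repair libraries, and injury replicate 3 had 53123 CPM, against 145640 to 244045 CPM in the other injury libraries. Not all libraries paired high SLIT3 with a high fibroblast marker sum. Long-term gel replicate 1 had the highest SLIT3 of its group (10.6 CPM) and the lowest sum (994 CPM). Short-term gel replicate 1 had the highest SLIT3 of its group (26.9 CPM) with a sum of 1634 CPM, and replicate 4 the lowest (9.84 CPM) with 2179 CPM. Uninjured replicate 7 had the lowest sum of its group (613 CPM) with SLIT3 at 7.39 CPM. The part of the marker sums in the SLIT3 differences was not tested.

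Other marker lists were also high in single long-term repair libraries, not always in those with high ligand levels. Replicates 1 and 4 held the high levels of both ligands, but replicate 4 had only 10.6 CPM of macrophage markers. Its 396 CPM of adipocyte markers lay below replicates 1 and 3, yet above every gel (at most 358 CPM) and uninjured library (at most 288 CPM). Adipocyte markers averaged 267 CPM with the gel, 551 CPM with repair alone and 226 CPM in uninjured muscle, with 1024 CPM in repair replicate 1 and 815 CPM in replicate 3. Tenocyte markers averaged 66.2 CPM with the gel, 230 CPM with repair alone and 54.9 CPM in uninjured muscle, with 764 CPM in repair replicate 4 and 143 CPM in replicate 1. Macrophage markers averaged 9.79 CPM with the gel, 15.8 CPM with repair alone and 7.77 CPM in uninjured muscle, with 32.8 CPM in repair replicate 1. In the short term the pericyte and smooth muscle markers summed to 2209 CPM in gel replicate 3, the gel library with the most ROBO1, against 330 to 530 CPM in the other gel libraries. They summed to 1921 CPM in repair replicate 5, against 275 to 515 CPM in the other repair libraries. The part of these markers in the SLIT and ROBO levels was not tested.

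Expressed per 1000 CPM of the summed fibroblast and fibro-adipogenic progenitor markers, SLIT3 was at 7.72 ± 1.89 in long-term gel muscle. It was at 8.63 ± 2.08 with repair alone and 6.15 ± 2.55 in uninjured muscle (SD, n = 5, 5 and 10). In the short term it was at 9.06 ± 4.46 with the gel, 15.1 ± 6.45 with repair alone and 6.92 ± 2.21 with injury only. On this scale injury replicate 3 (8.13) lay among the other injury libraries (4.03 to 9.06), while 4 of 5 short-term repair libraries (13.8 to 22.5) lay above all injury libraries and repair replicate 4 (5.15) did not. This scale leans on GSN, the largest marker, which averaged 990 CPM with short-term repair and 1441 CPM with injury only. COL15A1 was also lower with repair (118 against 130 CPM). The other markers were higher, among them LUM (755 against 140 CPM), PDGFRA (85.2 against 37.5 CPM) and MFAP5 (261 against 114 CPM). The ratio was not computed without GSN, so an excess of SLIT3 over these markers is not shown. Tenocyte and macrophage markers also had wide ranges: 6 tenocyte markers summed to 174 to 301 CPM with the gel, 56.4 to 997 CPM with repair alone and 70.4 to 1136 CPM with injury only in the short term. The 5 macrophage markers summed to 23.4 to 138 CPM with the gel, 7.36 to 129 CPM with repair alone and 7.77 to 46.2 CPM with injury only. Schwann cell markers, 6 in all, summed to 33.1 to 101 CPM with the gel, 46.3 to 79.1 CPM with repair alone and 50 to 183 CPM with injury only.

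ROBO4 was read beside 9 endothelial markers, such as PECAM1, CDH5 and KDR. Their summed level averaged 454 ± 55.7 CPM in long-term gel, 441 ± 14.3 CPM in long-term repair and 470 ± 37.8 CPM in uninjured muscle, and 387 ± 121 CPM in short-term gel, 513 ± 168 CPM in short-term repair and 396 ± 161 CPM in short-term injury. Per 1000 CPM of these markers ROBO4 was at 84.5 ± 11.1 in long-term gel, 85.2 ± 6.63 in long-term repair and 82.7 ± 7.79 in uninjured muscle. In the short term it was at 84.2 ± 19.3 with the gel, 53.3 ± 16.2 with repair alone and 79.0 ± 6.07 with injury only, and the short-term repair libraries (27.5 to 69.0) lay below all injury libraries (70.8 to 84.8). That lack of overlap did not hold without VWF, the only marker left out here. VWF averaged 127 ± 67.5 CPM with the gel, 250 ± 125 CPM with repair alone and 135 ± 67.0 CPM with injury only. Without VWF the other 8 markers summed to 260, 263 and 261 CPM on average in these groups, and ROBO4 per 1000 CPM of them was at 122 ± 19.6 with the gel, 97.5 ± 17.8 with repair alone and 119 ± 8.68 with injury only. The repair libraries (66.1 to 108) then overlapped the injury libraries (106 to 124). These ratios were computed after the levels were seen and were not tested.

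**Figure D4:**
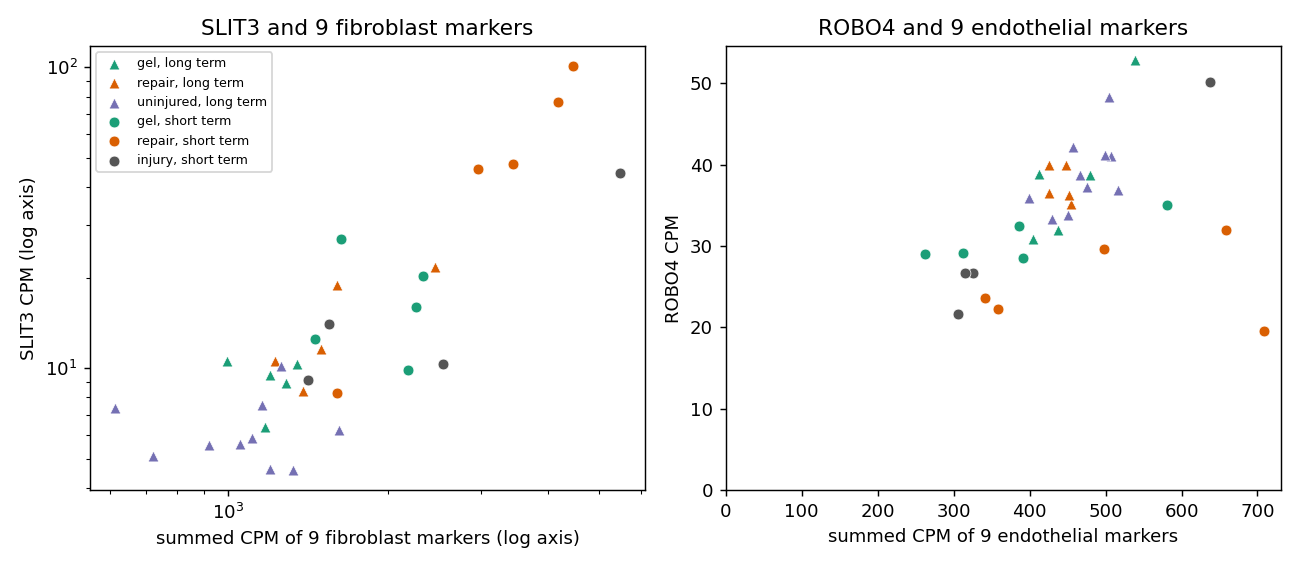
SLIT3 CPM against the summed CPM of 9 fibroblast markers (left, both axes log) and ROBO4 CPM against the summed CPM of 9 endothelial markers (right), each point 1 of 34 libraries, by group. The 4 high short-term repair libraries lie at 46.0 to 101 CPM of SLIT3 on the left, and on the right short-term repair replicate 1 lies lowest in ROBO4 (19.5 CPM).

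Across libraries the members shared their order in part. Over the 14 short-term libraries the Spearman rho between SLIT3 and ROBO1 was 0.74 and between SLIT3 and ROBO2 0.67, while over the 20 long-term libraries these were 0.26 and 0.22. ROBO4 had rho values between -0.02 and 0.43 with the others in the short term and between -0.45 and 0.11 in the long term. The points share their libraries, scaling and groups, so the values describe these libraries only.

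Of 10606 genes compared, those most like SLIT3, by the mean of the short-term and long-term rho, were the sialyltransferase ST3GAL2 (0.93 in the short and 0.75 in the long term), the endocytic receptor LRP1 (0.87 and 0.80) and the lysosomal ribonuclease RNASET2 (0.83 and 0.83). For ROBO1 they were VGLL3, a cofactor of TEAD factors (0.82 and 0.76), the hyaluronan synthase HAS2 (0.95 and 0.61) and the kinase NEK8 (0.87 and 0.66). ROBO2 was most like PRG4, which encodes lubricin (0.89 and 0.65), the collagen cross-linking enzyme LOX (0.67 and 0.75) and the mannose receptor MRC1 (0.77 and 0.62). ROBO4 was most like FAM101B (0.85 and 0.48), the endothelial cadherin CDH5 (0.75 and 0.53) and SFXN3 (0.71 and 0.52). SLIT2 was most like WHRN (0.75 and 0.64), MFHAS1 (0.71 and 0.65) and FAM198B (0.75 and 0.61). With Pearson's r in place of rho, LRP1 for SLIT3 and PRG4 and MRC1 for ROBO2 remained among the 3 most like, and for SLIT2, ROBO1 and ROBO4 0 of 3 did.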

How the data were processed

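Bulk RNA-seq of 34 rabbit supraspinatus libraries was analysed. Per the labels' protocols, a commercial laboratory extracted the RNA and made the libraries. The authors deposited unnormalized read counts, whole numbers for each gene. The submitters' processing notes name STAR, edgeR and OryCun2.0, without versions. The counter, the annotation and the strand setting were not given in those sources, so overlapping, antisense or near-identical genes cannot be told apart.

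Every file listed 18210 entries. Because 26 names had become dates in 1 file, those entries were dropped everywhere (at most 0.163% of any library). Symbols listed more than once, 7 of them with 15 entries, were added up, which gave 18176 genes. None of 91 pairs of libraries within groups was identical, and their smallest chi-square was 9.86 per degree of freedom.

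Tests used edgeR 4.0.16 in R 4.3.3 (TMM, expression filter, robust quasi-likelihood), fitted over the 14 short-term libraries (13526 genes), over the 20 long-term ones (11605 genes) and, between terms, over all 34 (12935 genes). All 5 members passed each filter. P-values are two-sided, with Benjamini-Hochberg adjustment over all genes tested and a threshold of 0.05, and log2 differences are first group minus second. CPM used TMM factors over 34 libraries, from 0.725 to 1.52, and log2 CPM a prior count of 2. The fits were tested on simulated data. Alternatives were DESeq2 1.42.0, its size factors, library totals, voom with sample quality weights (limma 3.58.1), no filter, fits of only the groups compared or of all libraries, replicate blocks and leaving out each replicate. Leaving out the libraries that stood apart was added after seeing the data. Titles gave groups and replicate numbers. Codes in the file names link each long-term operated muscle with an uninjured one and were taken as marking the same animal. Correlations of deviations ran from -0.254 to 0.173 over the gel pairs and from -0.026 to 0.38 over the repair pairs. The coded uninjured muscle was the best match for 0 of 5 gel muscles and for 4 of 5 repair muscles.

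The genes, the pathway list, the marker lists and the tests were chosen with earlier results of these data known. Pathway genes are named where they passed the threshold (at most the 6 with the smallest p) or, failing that, as the 2 with the smallest p, and the genes most like a member as the 3 with the highest mean rho. Limits from counts cover counting error only.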

Additional observations from a re-analysis of the deposited data

Results flagged for a closer look

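Each member was searched in each of the 6 groups for a library far from the others, by the gap to its nearest neighbour over the range of the group. Of 30 searches 4 gave such a library. For independent, normally distributed values the rule gives about 1 in 20. CPM levels need not be normally distributed and the searches share libraries, so that rate may not hold here. SLIT3 was at 44.5 CPM in short-term injury replicate 3, against 9.11 to 14 CPM in the other 3, and ROBO1 was at 4.36 CPM in the same library, against 0.710 to 0.979 CPM. This library also had the highest fibroblast marker sum of its group (5473 CPM) and a low median correlation with it (0.887), and their part in its SLIT3 and ROBO1 levels was not tested. SLIT2 was at 3.33 CPM in short-term repair replicate 1, against 0.411 to 1.09 CPM in the other 4. SLIT3 was at 10.2 CPM in uninjured replicate 2, against 4.59 to 7.53 CPM in the other 9, and this is the uninjured muscle whose repaired partner had 10.6 CPM.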

How the results depend on the processing

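Within the short term the number of members called by edgeR, 0 in each comparison, depended on the setting. For gel against repair it was 1 in a fit of all 34 libraries and 1 without injury replicate 3 and repair replicate 4, beside 93 and 13 of all genes. For repair against injury it was 3 with limma voom, 2 in the fit of all libraries and 3 without those 2 libraries, beside 4538, 626 and 4556 of all genes. For gel against injury it was 1 with limma voom and 1 without those 2 libraries, beside 3667 and 2577 of all genes. For gel in the long against the short term, 1 member was called, but 2 with library totals, 2 with limma voom and 2 without the 3 libraries that stood apart. Beside these, 5995, 7875 and 7617 of all genes were called. With each replicate left out it was 0 to 2 members, beside 5316 to 6874 of all genes. For repair between terms it was 2 to 3 with each left out, beside 4699 to 6858 of all genes. The SLIT3 value for repair minus uninjured ran from 0.994 to 1.354 with each left out.

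Most changes of sign were in values near 0. With library totals ROBO4 was at -0.139 for gel minus repair in the long term and -0.039 for gel between terms, and ROBO1 at 0.025 for the interaction. With limma voom SLIT2 was at 0.084 for gel minus repair in the short term and 0.053 for repair between terms, SLIT3 at 0.548 for gel minus injury, ROBO4 at -0.173 for gel minus repair and ROBO1 at 0.089 for gel minus uninjured in the long term and 0.441 for the interaction. ROBO4 for gel minus injury was at -0.04 without the filter, -0.036 with only those groups and -0.023 in the fit of all libraries. Without the libraries that stood apart SLIT3 was at 0.584 for gel minus injury, ROBO2 at 0.062 and ROBO4 at -0.11 for gel minus repair in the long term, and ROBO1 at 0.407 for the interaction.

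With each replicate left out in turn, signs changed within these ranges: SLIT2 -0.485 to 0.489 for gel minus repair and -0.016 to 1.248 for repair minus injury in the short term, -0.543 to 0.719 for repair between terms and -1.232 to 0.036 for the interaction; ROBO4 -0.142 to 0.272 and SLIT3 -0.422 to 0.584 for gel minus injury; ROBO2 -1.252 to 0.062 and ROBO4 -0.11 to 0.083 for gel minus repair in the long term; ROBO2 -0.731 to 0.706 and ROBO4 -0.153 to 0.047 for gel minus uninjured; ROBO2 -0.45 to 0.949 for gel between terms; and ROBO1 -0.405 to 0.493 for the interaction. The cause of these changes was not tested.

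Correlations of deviations cannot decide whether the replicate numbers in the titles pair the samples. The lowest was below 0.1 in every pair of groups, for title numbers and for animal codes (-0.254 and -0.026) alike. For title numbers the highest were 0.402 for gel and repair and 0.403 for gel and injury, both short term. With the title number as a replicate block 0 members were called in each comparison within a term, 3 for repair and 1 for gel between terms, and signs changed for ROBO4 at -0.004 for gel minus injury and -0.006 for gel minus repair in the long term, SLIT2 at 0.007 for repair between terms and ROBO1 at 0.061 for the interaction. With the animal code as a replicate block SLIT3 was at 0.914 for repair minus uninjured and 0.805 for gel minus uninjured, and in that fit of 5 pairs SLIT2 and ROBO2 fell below the filter. With all 10 animals in one such fit SLIT2 was at 0.6 and ROBO2 at 0.825 for repair minus uninjured, against 0.932 and 0.521 without the block, and SLIT2 at 0.309 for gel minus uninjured, against 0.144.

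Over all genes edgeR called 0, 0 and 0 for gel against repair, repair against injury and gel against injury in the short term, while DESeq2 called 127, 242 and 788, limma voom 3, 4538 and 3667, and the fit of all libraries 93, 626 and 1085. Without injury replicate 3 and repair replicate 4 these were 13, 4556 and 2577. For repair against uninjured muscle 117 genes were called, 234 with DESeq2, 27 with limma voom, 63 with only those groups, 9 in the fit of all libraries, 0 with the animal as a replicate block and 0 to 319 with each replicate left out. With DESeq2 the count was 7 against 0 for gel against repair in the long term, 15 against 1 for gel against uninjured and 28 against 2 for the interaction. With each replicate left out the short-term counts reached 2 for gel against repair, 34 for repair against injury and 382 for gel against injury. ROBO2 and SLIT2 rest on few counts in the long term, which limits what can be detected for them.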
